A study of Homo sapiens with 4 samples.

Results

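This account follows 10 genes of inhibin, activin, TGF-beta and BMP signalling in A549, an established cell line from a human lung adenocarcinoma, labelled wild type. The genes were taken by symbol from the 26255 symbols measured: the inhibin and activin subunits INHA, INHBA and INHBB, the activin antagonist FST, the ligands TGFB1, TGFB2 and BMP4, the BMP target ID1, and the inhibitory SMADs SMAD6 and SMAD7. They were chosen with their values in these libraries known, in particular the larger hypoxia difference of INHA in 3D, so their values are given as a description and without a test. RNA was measured after 5 days in medium with 5% serum, on gelled Matrigel, a basement membrane extract (3D), or on an ordinary culture dish (2D), each in normoxia or in hypoxia with 1% oxygen. Each of the 4 groups had 1 library, so a difference between libraries has no replicate check. Values are FPKM, which divides fragments by transcript length and by library depth. Depth inferred from the lowest values, in units of 1000000 fragments, was 11.8 and 11.3 for the normoxic and hypoxic 3D libraries and 24.0 and 38.7 for the normoxic and hypoxic 2D libraries. Intervals below are 95% Poisson intervals from these depths and cover counting error only.

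Ligands of the TGF-beta superfamily are secreted dimers that bring type I and type II receptor kinases together. The receptors for TGF-beta and activin pass the signal to SMAD2 and SMAD3, those for BMPs to SMAD1, SMAD5 and SMAD9, and SMAD4 is the shared partner. Activins are dimers of beta subunits, whereas inhibins pair the alpha subunit encoded by INHA with a beta subunit and oppose activin at its receptors. In carcinoma cells TGF-beta signalling is known for turning on genes of matrix, contractility and migration.

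The label of the cells was checked against markers. Of 10 epithelial and lung adenocarcinoma markers 7 had a mean of at least 1 FPKM, led by KRT8 (1894.33 to 3731.35 FPKM) and KRT18, while the lung lineage genes NKX2-1, SFTPB and SFTPC stayed at or below 0.10 FPKM in every library. The summed level of the epithelial list ran from 5207 FPKM in 2D hypoxia to 8317 in 3D hypoxia. All 5 endothelial markers were below a mean of 1 FPKM, with sums of 0.172 to 0.475 FPKM. Of 6 blood cell markers, CD68 and CD14 passed a mean of 1 FPKM and the list summed to 16.5 to 43.0 FPKM, but PTPRC did not exceed 0.017 FPKM, and CD3E and MS4A1 were listed at 0 in all 4 libraries. Of 8 fibroblast markers only COL1A1 passed, and the list's sum went from 0.833 FPKM in 3D hypoxia to 14.7 in 2D hypoxia.

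A RefSeq promoter (GRCh38.p14) was matched for all 10 genes. The 250 bases before the gene start are printed for INHA, TGFB1 and SMAD7, the members that stood at least 2-fold higher in 3D hypoxia than in 3D normoxia. Capitals mark the HIF core motif (ACGTG or GCGTG), the cAMP response core TGACG and the SMAD motif CAGAC, on either strand.

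INHA, chr2:219572060-219572309, plus strand: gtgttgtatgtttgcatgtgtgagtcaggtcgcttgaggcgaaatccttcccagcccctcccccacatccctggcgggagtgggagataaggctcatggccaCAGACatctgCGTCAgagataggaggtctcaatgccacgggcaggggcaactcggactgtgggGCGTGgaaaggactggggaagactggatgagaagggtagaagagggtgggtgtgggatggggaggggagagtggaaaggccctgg

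TGFB1, chr19:41353923-41354172, minus strand: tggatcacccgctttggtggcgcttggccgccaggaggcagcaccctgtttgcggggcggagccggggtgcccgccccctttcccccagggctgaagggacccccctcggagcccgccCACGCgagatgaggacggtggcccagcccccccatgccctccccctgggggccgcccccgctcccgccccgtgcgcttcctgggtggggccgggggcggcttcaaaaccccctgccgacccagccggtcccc

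SMAD7, chr18:48950966-48951215, minus strand: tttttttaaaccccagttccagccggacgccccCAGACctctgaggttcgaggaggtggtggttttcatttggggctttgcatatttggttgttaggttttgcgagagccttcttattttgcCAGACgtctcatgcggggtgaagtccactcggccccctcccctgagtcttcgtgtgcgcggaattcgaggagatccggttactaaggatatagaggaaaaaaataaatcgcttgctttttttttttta

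In the INHA window CAGAC lay 148 bases before the start, TGACG (as its reverse complement) 138 bases before it, and GCGTG 85 bases before it. In the TGFB1 window GCGTG, as its reverse complement, lay 132 bases before the start, and the SMAD7 window held CAGAC at 217 and 128 bases before the start and no HIF core. None of the marked motifs overlapped another in these 3 windows. A HIF core of either form was present in 5 of the 10 members (INHA, TGFB1, TGFB2, ID1 and SMAD6), beside 43.2% of all 35116 promoters of this length. TGACG was in 2 of 10 members (INHA and TGFB2), beside 21.2% of promoters, and CAGAC in 4 of 10 (INHA, TGFB2, BMP4 and SMAD7), beside 38.0%. A further motif, GGCGCC, which occurs in BMP-responsive promoters, was in 2 of 10 (INHBB and BMP4), beside 16.4%. These matches describe letters in a window, not sites of binding.

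INHA encodes the alpha subunit of inhibin. It was at 0.691 FPKM in normoxic 3D (interval 0.357 to 1.21) and 7.86 in hypoxic 3D (6.57 to 9.33), and at 1.11 in normoxic 2D (0.788 to 1.52) and 0.976 in hypoxic 2D (0.736 to 1.27). The 3D hypoxia library thus stood alone, and the intervals of the other three overlapped each other. These values rested on about 12, 131, 39 and 55 fragments in that order. Between the 3D libraries the level differed 11.4-fold, or 2.39 (counting error 0.20) on the log2(FPKM + 1) scale used for all ratios below, which understates the differences of low genes. Between the 2D libraries the log2 ratio was -0.09 (counting error 0.15). The hypoxia difference in 3D exceeded that in 2D by 2.48 (counting error 0.26). This was higher than in 99.8% of the 12663 genes whose mean reached 1 FPKM. INHA was chosen with this difference known, so its rank there follows from the choice and is no independent support. In bulk RNA, a change in the number of cells that express a gene and a change in its RNA per cell cannot be told apart. INHA passed the mean of 1 FPKM through the 3D hypoxia library, and only 2 of its 4 values reached 1 FPKM.

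The beta subunits, which pair with INHA or with each other, differed from one another in level. INHBB was at 42.1 FPKM in normoxic 3D and 63.2 in hypoxic 3D, and at 42.7 in normoxic 2D and 31.4 in hypoxic 2D. It was higher under hypoxia in 3D (log2 ratio 0.58, counting error 0.05) and lower under hypoxia in 2D (-0.43, counting error 0.03), while the normoxic libraries had overlapping intervals (40.1 to 44.2 and 41.2 to 44.1 FPKM). In hypoxia the 3D library was 2.01-fold above the 2D library, a log2 ratio of 0.99. INHBA was listed at 0 in normoxic 3D and was at 0.488 FPKM in hypoxic 3D, and it was at 0.0764 in normoxic and 0.606 in hypoxic 2D culture. Its mean of 0.292 FPKM counts as not expressed, so in all 4 libraries the beta subunit transcript present was almost wholly INHBB. INHBB was above INHA in FPKM in every library, also in 3D hypoxia. FST, the secreted antagonist that binds activin, was at 0.622, 0.246, 1.40 and 0.532 FPKM in normoxic and hypoxic 3D, then normoxic and hypoxic 2D. Hypoxic values were lower in both cultures, with intervals that overlapped in 3D (0.373 to 0.975 and 0.0996 to 0.505 FPKM) and not in 2D. The mean was 0.699 FPKM, just outside the threshold of 1, while INHA, the lowest member inside it, had a mean of 2.66 FPKM. FST and INHBA enter none of the counts below.

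**Figure D1:**
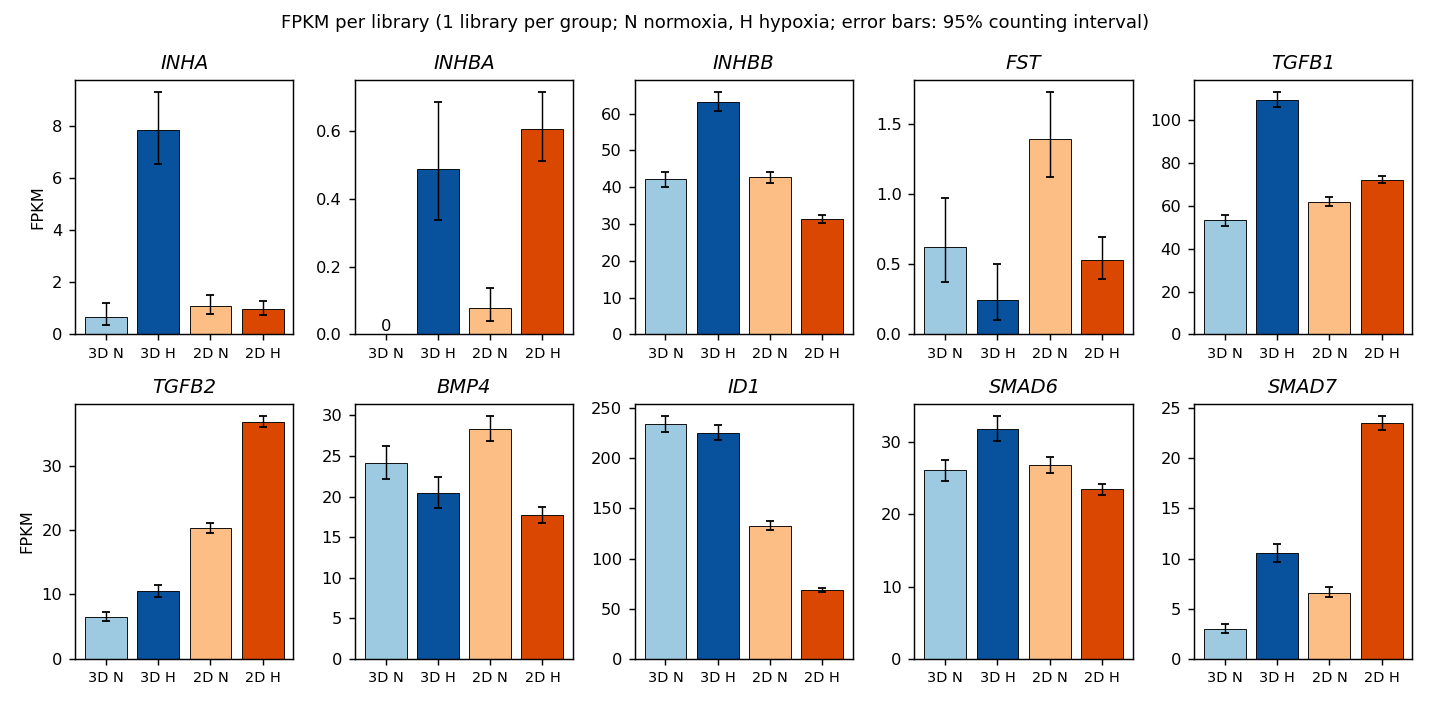
FPKM of each of the 10 genes in the 4 libraries (N normoxia, H hypoxia, 1 library per bar), each panel with its own linear axis from 0 and error bars for the 95% Poisson counting interval. INHA stands at 7.86 FPKM in 3D hypoxia and at or below 1.11 in the other libraries, whereas SMAD7 and TGFB2 are highest in 2D hypoxia and ID1 is highest in both 3D libraries.

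TGFB1 and TGFB2, which encode TGF-beta ligands, were ordered differently over the libraries. TGFB1 was at 53.1 FPKM in normoxic 3D and 109.2 in hypoxic 3D, and at 61.9 in normoxic 2D and 72.0 in hypoxic 2D. The highest value was again that of 3D hypoxia, and no pair of its counting intervals overlapped. Its log2 ratio under hypoxia was 1.03 in 3D (counting error 0.04) and 0.22 in 2D (counting error 0.03). The 3D ratio lay close to the 2-fold line and dropped to 0.90 when each library was rescaled to an FPKM sum of 1000000. TGFB2 was at 6.54 FPKM in normoxic 3D and 10.5 in hypoxic 3D, and at 20.3 in normoxic 2D and 36.8 in hypoxic 2D. Both 2D libraries stood above both 3D libraries, and hypoxia stood above normoxia in each culture (log2 ratio 0.61 in 3D and 0.83 in 2D). The log2 ratio of 3D to 2D was -1.50 in normoxia (3.1-fold lower) and -1.72 in hypoxia (3.51-fold lower), with counting errors of 0.07 and 0.06. TGFB1 was above TGFB2 in every library, by 8.13-fold and 10.4-fold in the normoxic and hypoxic 3D libraries and by 3.05-fold and 1.96-fold in the 2D libraries on the FPKM scale.

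BMP4, a BMP ligand, was at 24.1 FPKM in normoxic 3D and 20.4 in hypoxic 3D, and at 28.3 in normoxic 2D and 17.7 in hypoxic 2D. Its values spanned 1.6-fold from lowest to highest, with log2 ratios under hypoxia of -0.23 in 3D (counting error 0.09) and -0.65 in 2D (counting error 0.05), and its intervals overlapped between the 2 hypoxic libraries and between the 2 3D libraries. ID1, a direct BMP target that encodes an inhibitor of helix-loop-helix transcription factors, was at 233.9 FPKM in normoxic 3D and 225.4 in hypoxic 3D, and at 132.4 in normoxic 2D and 68.7 in hypoxic 2D. It was the most abundant of the members in 3 libraries, and in 2D hypoxia its interval (66.3 to 71.1 FPKM) overlapped that of TGFB1 (70.4 to 73.7). In 3D the intervals of normoxia and hypoxia overlapped (log2 ratio -0.05), whereas in 2D the hypoxic value was 1.93-fold lower (-0.94, counting error 0.03). In hypoxia ID1 was 3.28-fold higher in 3D than in 2D, a log2 ratio of 1.70.

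SMAD6 and SMAD7 encode the inhibitory SMADs, which are induced by the pathway and hold it back, SMAD6 mainly against BMP receptors and SMAD7 against TGF-beta receptors as well. SMAD7 was at 2.97 FPKM in normoxic 3D and 10.5 in hypoxic 3D, and at 6.61 in normoxic 2D and 23.5 in hypoxic 2D. The hypoxic library was 3.55-fold higher in each culture (log2 ratio 1.54 in 3D and 1.69 in 2D, counting errors 0.10 and 0.05), and the difference between the cultures' ratios, -0.15, was near its counting error of 0.12. The 3D level was below the 2D level in normoxia (-0.94) and in hypoxia (-1.08). SMAD6 was at 26.1, 31.9, 26.8 and 23.5 FPKM in normoxic and hypoxic 3D, then normoxic and hypoxic 2D. Its range of 1.36-fold was the narrowest of the 8 expressed members, and its ratio under hypoxia was 0.28 in 3D and -0.18 in 2D.

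Counted over the 8 expressed members, INHA, SMAD7 and TGFB1 passed 2-fold upward from normoxic to hypoxic 3D culture and 0 were at least 2-fold lower. Of all 12663 genes, 2.91% were higher and 1.11% lower by this measure. The median log2 ratio of the members was 0.59, beside -0.02 for all genes. In 2D 1 member, SMAD7, was at least 2-fold higher and 0 lower, beside 2.01% and 1.59% of all genes, and the members' median was -0.14. In the difference between the hypoxia responses, INHA and INHBB (1.01) were at least 2-fold higher in 3D and 0 lower, beside 1.87% and 0.861% of all genes. With the members chosen on these values, nothing is read from the counts. No libraries are shared between the hypoxia ratios of 3D and 2D.

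**Figure D2:**
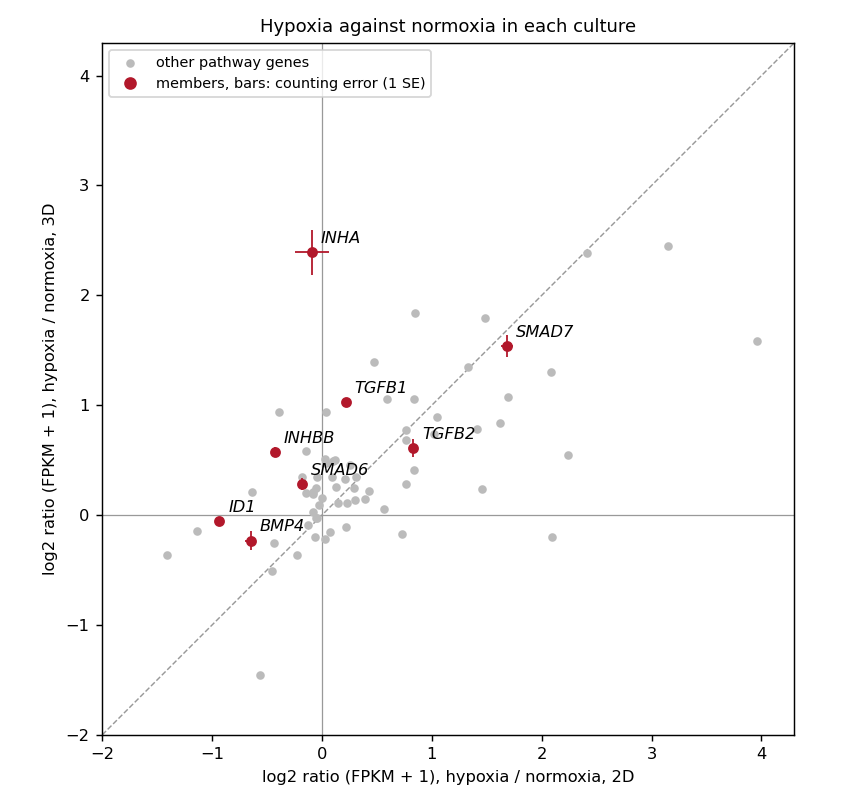
Log2 ratio of hypoxia to normoxia in 2D (horizontal) and in 3D (vertical) for the 8 expressed members (red, bars 1 counting error) and the other expressed pathway genes (grey), with the dashed line marking equal ratios. INHA lies far above the line (2.39 in 3D and -0.09 in 2D), and SMAD7 lies near it at 1.54 and 1.69.

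For the cultures in normoxia, 0 members were at least 2-fold higher in 3D and 1, TGFB2, was lower, beside 1.98% and 2.49% of all genes. In hypoxia INHA (2.17) and ID1 (1.70) were at least 2-fold higher in 3D, and TGFB2 (-1.72) and SMAD7 (-1.08) at least 2-fold lower, beside 3.8% and 3.02% of all genes. INHBB at 0.99 lay just under the line. INHA entered this count, the 3D hypoxia count and that of the difference of responses through the same 3D hypoxia library. Its entries are thus not separate observations. The members' median was -0.22 in normoxia and 0.51 in hypoxia.

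**Figure D3:**
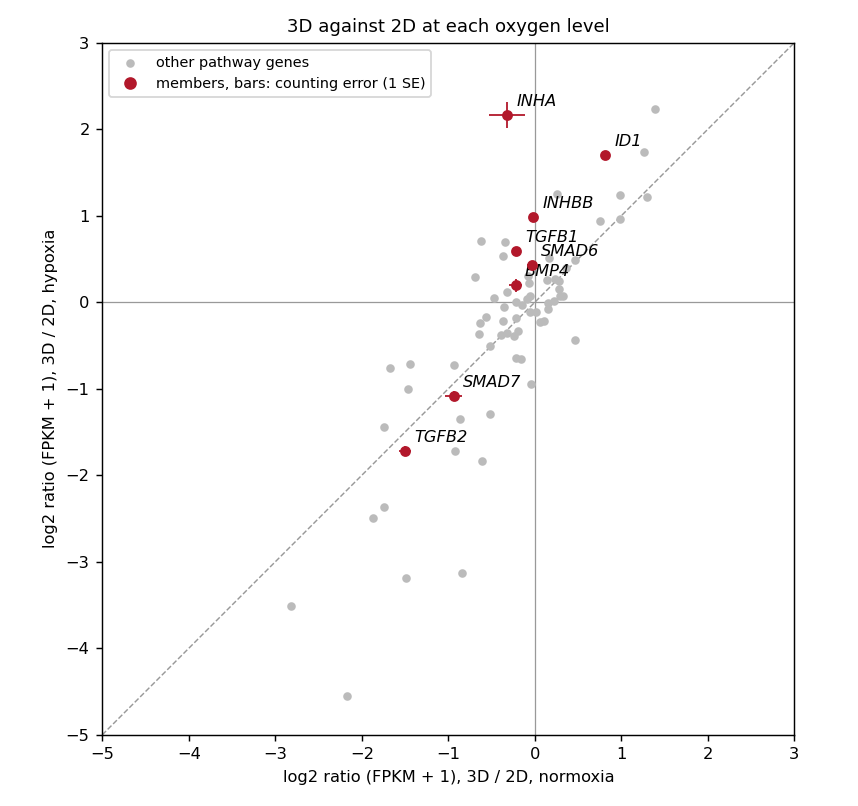
Log2 ratio of 3D to 2D in normoxia (horizontal) and in hypoxia (vertical) for the 8 expressed members (red, bars 1 counting error) and the other expressed pathway genes (grey), with the dashed line marking equal ratios. TGFB2 and SMAD7 are lower in 3D at both oxygen levels, ID1 is higher at both, and INHA is higher in 3D only in hypoxia (2.17, against -0.32 in normoxia).

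The rest of the pathway was described from 7 lists with 107 distinct genes in the files, of which 65 reached a mean of 1 FPKM. Of these, PMEPA1, LTBP2, SKIL and BAMBI are each in 2 lists, so the counts by list below overlap. The lists were chosen with earlier results of these data known, so their counts and medians are a description. The mean hypoxia effect and mean culture effect of the 65 genes came from a limma fit of all 12663 genes. The fit had the 2 factors as additive terms, which leaves 1 residual degree of freedom. No label says that the libraries came from separate experiments, so each p-value reflects these libraries only. The 1 residual degree of freedom is the difference between the hypoxia responses of the 2 cultures. Each p-value thus sets a gene's mean effect against that difference, pooled in part with that of other genes. It does not measure spread between replicates. Genes whose hypoxia response differs between the cultures are thereby less likely to pass. Under hypoxia 15 of the 65 rose and 0 fell by limma, beside 3.2% and 1.64% of all genes, and at an unadjusted p under 0.05 the counts were 24 and 5, beside 25.6% of all genes in either direction. In 3D against 2D 7 rose and 17 fell, beside 10.4% and 11.6% of all genes. Of these calls, 4 were of genes below 1 FPKM in both libraries of a culture (ATOH8, ID4, GREM1 and COL1A1), which reached the mean of 1 FPKM through the other culture and so had to differ. Without such genes 5 of 60 rose and 15 fell. The share of all genes under the same exclusion was not computed, so these counts have no background to be read against. In simulated data the fit made more false hypoxia calls than its threshold allows, which bears on each hypoxia call below. False culture calls were not counted there, so how many the fit makes is not known. The simulation drew independent noise around additive effects, whereas the residual here is the difference between the cultures' hypoxia responses. The share of false hypoxia calls in these libraries is thus not known either. With no filter on low values limma called 0 genes of any kind at an adjusted p below 0.05, with 2812 genes of 26255 at an unadjusted p under 0.05 for hypoxia and 4518 for culture. Rescaling each library to a sum of 1000000 shifted the median log2 estimate of all genes from -0.01 to -0.14 for hypoxia and from -0.03 to -0.21 for culture, and the share of hypoxia calls that were up went from 66.1% to 38.9% (culture 47.1% to 19.7%), while 14 of the 65 pathway genes rose under hypoxia. With the median-of-ratios rescaling 8 of the 65 rose.

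Of all 26255 symbols 12663 reached a mean of 1 FPKM. Of 25 ligands other than the members 19 did not, among them TGFB3 at 0.777 to 0.924 FPKM. Of the 6 expressed, 0 passed limma in either effect, and at an unadjusted p under 0.05 it gave 2 lower under hypoxia and 1 lower in 3D, beside 25.6% and 40.3% of all genes in either direction. GDF15, a stress-induced distant member of the family, was at 120.8 FPKM in normoxic 3D and 93.6 in hypoxic 3D, and at 153.4 in normoxic 2D and 57.2 in hypoxic 2D, the highest level of these ligands. BMP6 was at 3.91, 8.41, 6.54 and 4.74 FPKM in the same order, higher under hypoxia in 3D (log2 ratio 0.94) and lower in 2D (-0.39).

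Of the 11 expressed receptors 2 rose under hypoxia and 0 fell, beside 3.2% and 1.64% of all genes. TGFBR1, the type I TGF-beta receptor, was at 5.43 FPKM in normoxic 3D and 10.5 in hypoxic 3D, and at 8.19 in normoxic 2D and 27.3 in hypoxic 2D. It rose by 1.23 ± 0.20 (SE, limma adjusted p = 0.0352), and BMPR2, the type II BMP receptor, rose by 0.77 ± 0.12 (limma adjusted p = 0.0313). In 3D against 2D TGFBR1 fell by 0.91 ± 0.20 and NEO1, a co-receptor, by 0.51 ± 0.13, while TGFBR2, the type II TGF-beta receptor and the most abundant receptor at 77.9 to 111.1 FPKM, rose by 0.47 ± 0.12 (limma adjusted p = 0.0312, 0.0418 and 0.0431). The list's median under hypoxia was 0.11 in 3D and -0.01 after rescaling to a sum of 1000000.

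Of the 5 expressed signalling SMADs, SMAD3, which carries the TGF-beta and activin signal, rose under hypoxia by 0.95 ± 0.13 (limma adjusted p = 0.025). It was at 51.0 FPKM in normoxic 3D and 107 in hypoxic 3D, and at 59.3 in normoxic 2D and 107 in hypoxic 2D, so that the hypoxic libraries were alike and both above the normoxic ones. SMAD2, which carries the same signal, lay between 7.9 and 9.36 FPKM, and SMAD1, SMAD4 and SMAD5 between 3.77 and 9.64. None of those 4 passed limma in either effect, and SMAD9 was below a mean of 1 FPKM.

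Among 14 expressed extracellular antagonists and proteins of latency and activation, 3 rose under hypoxia and 0 fell, beside 3.2% and 1.64% of all genes. ITGAV, an integrin subunit that helps to release latent TGF-beta, rose by 0.97 ± 0.12, THBS1, a matricellular activator of TGF-beta, by 1.10 ± 0.17, and FSTL1, a secreted follistatin-like protein, by 0.82 ± 0.15 (limma adjusted p = 0.0205, 0.033 and 0.0447). In 3D 7 of the 14 fell and 0 rose, beside 11.6% and 10.4% of all genes. Among the 7 were THBS1 (-2.18 ± 0.17), FSTL1 (-1.24 ± 0.15), the follistatin-related activin antagonist FSTL3 (-1.21 ± 0.23) and the matrix protein LTBP2 (-1.11 ± 0.16) (limma adjusted p between 0.00575 and 0.0217). The BMP antagonist GREM1, at 0.0411, 0.224, 0.595 and 3.37 FPKM in normoxic and hypoxic 3D, then normoxic and hypoxic 2D, is among the 7 only through its level in 2D hypoxia. FSTL3 was at 28.7, 76.9, 93.8 and 130.4 FPKM in normoxic and hypoxic 3D, then normoxic and hypoxic 2D, far above FST in each library. Its hypoxia estimate, 0.93 ± 0.23, did not pass (limma adjusted p = 0.0797).

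All 12 intracellular inhibitors and corepressors were expressed, and 2 rose under hypoxia, beside 3.2% of all genes. PMEPA1, a TGF-beta target that restrains SMAD2 and SMAD3, was at 9.49 FPKM in normoxic 3D and 21.0 in hypoxic 3D, and at 34.2 in normoxic 2D and 113 in hypoxic 2D. It rose by 1.38 ± 0.17 under hypoxia (limma adjusted p = 0.0213) and fell by 2.06 ± 0.17 in 3D (0.00638), the same order of libraries as SMAD7 except that 3D hypoxia lay below 2D normoxia. TGIF2, a corepressor, rose under hypoxia by 0.88 ± 0.15 (limma adjusted p = 0.0401). BAMBI, a decoy receptor, was at 45.9, 41.4, 38.1 and 16.8 FPKM, lowest in 2D hypoxia as ID1 was, and did not pass in either effect.

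Of 14 expressed TGF-beta and activin target genes 7 rose under hypoxia and 0 fell, beside 3.2% and 1.64% of all genes. The list's median estimate was 1.36, beside -0.01 for all genes. In 3D 9 fell and 2 rose, beside 11.6% and 10.4% of all genes, with a median of -1.22 beside -0.03. The list was chosen with earlier results of these data known, so its counts and medians are a description. CDKN1A, a cell cycle inhibitor named after its values were seen, went the other way under hypoxia, at 40.1 FPKM in normoxic 3D and 13.98 in hypoxic 3D, and at 28.8 in normoxic 2D and 19.2 in hypoxic 2D (estimate -1.01 ± 0.22, limma adjusted p = 0.0655). TAGLN, an actin-binding gene, was at 2.26 FPKM in normoxic 3D and 8.75 in hypoxic 3D, and at 13.7 in normoxic 2D and 227.0 in hypoxic 2D, so that its highest value was that of 2D hypoxia. TAGLN (2.77 ± 0.51), the matrix protein TGFBI (1.64 ± 0.15) and the tropomyosin TPM1 (1.69 ± 0.21) rose under hypoxia (limma adjusted p = 0.0461, 0.00982 and 0.0209). The same 3 genes fell in 3D, with estimates of -3.36 ± 0.51 for TAGLN, -1.59 ± 0.15 for TGFBI and -1.32 ± 0.21 for TPM1 (0.0146, 0.00804 and 0.0166). IGFBP3, an IGF binding protein, rose both under hypoxia (2.40 ± 0.14) and in 3D (0.97 ± 0.14, limma adjusted p = 0.0128). FN1, named after its value was seen because it was the other gene to rise in 3D, rose there by 1.50 ± 0.16. The basement membrane collagen COL4A1 fell in 3D (-2.34 ± 0.37, limma adjusted p = 0.0166) and did not pass for hypoxia. The fibrillar collagen COL1A1, which is also a fibroblast marker, is among the 9 only through its 2D levels. It was at 0.856 FPKM in normoxic 3D and 0.614 in hypoxic 3D, and at 2.32 in normoxic 2D and 13.2 in hypoxic 2D, where the fibroblast list summed to 14.7 FPKM. The other 7 fibroblast markers were below 1 FPKM in every library. Of these LUM was at 0, 0.0838, 0.335 and 0.857 FPKM and PDGFRA at 0, 0.0251, 0.0648 and 0.165 FPKM in normoxic and hypoxic 3D, then normoxic and hypoxic 2D, so both were highest where COL1A1 was, while COL1A2 did not exceed 0.0072 FPKM. COL3A1 (0.0971 FPKM), PDGFRB (0.0889) and DCN (0.038) were also highest in 2D hypoxia. THY1 (0.292) and COL1A2 (0.0072) were highest in 2D normoxia. The part of these markers in the result was not tested. Many of these targets are also induced by other pathways, so the list is not a reading of SMAD activity alone.

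Of 7 expressed BMP target genes other than ID1, ATOH8 and ID4 reached the mean of 1 FPKM through the 3D libraries alone. Of the other 5, 2 rose in 3D and 0 fell. The share of all genes under that exclusion was not computed. ID2, which encodes a relative of ID1, rose by 1.25 ± 0.12 and the homeobox gene MSX2 by 0.85 ± 0.13 (limma adjusted p = 0.00683 and 0.0151). ID4 was at 1.59, 2.29, 0.307 and 0.388 FPKM in normoxic and hypoxic 3D, then normoxic and hypoxic 2D. ATOH8, a helix-loop-helix factor, was at 3.58 FPKM in normoxic 3D and 4.29 in hypoxic 3D, and at 0.749 in normoxic 2D and 0.128 in hypoxic 2D. ID2 was at 45.0, 73.0, 17.8 and 31.0 FPKM and also rose under hypoxia, by 0.73 ± 0.12 (limma adjusted p = 0.0337), the single BMP target to do so. MSX1 was at 2.84, 1.99, 2.15 and 1.69 FPKM and did not pass in either effect. ID3, the most abundant gene of this list and named after its values were seen, was nearly level between the cultures. It was at 132.9 FPKM in normoxic 3D and 158.7 in hypoxic 3D, and at 137.9 in normoxic 2D and 151.0 in hypoxic 2D. Its culture estimate was 0.01 ± 0.13, and it did not pass in either effect.

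**Figure D4:**
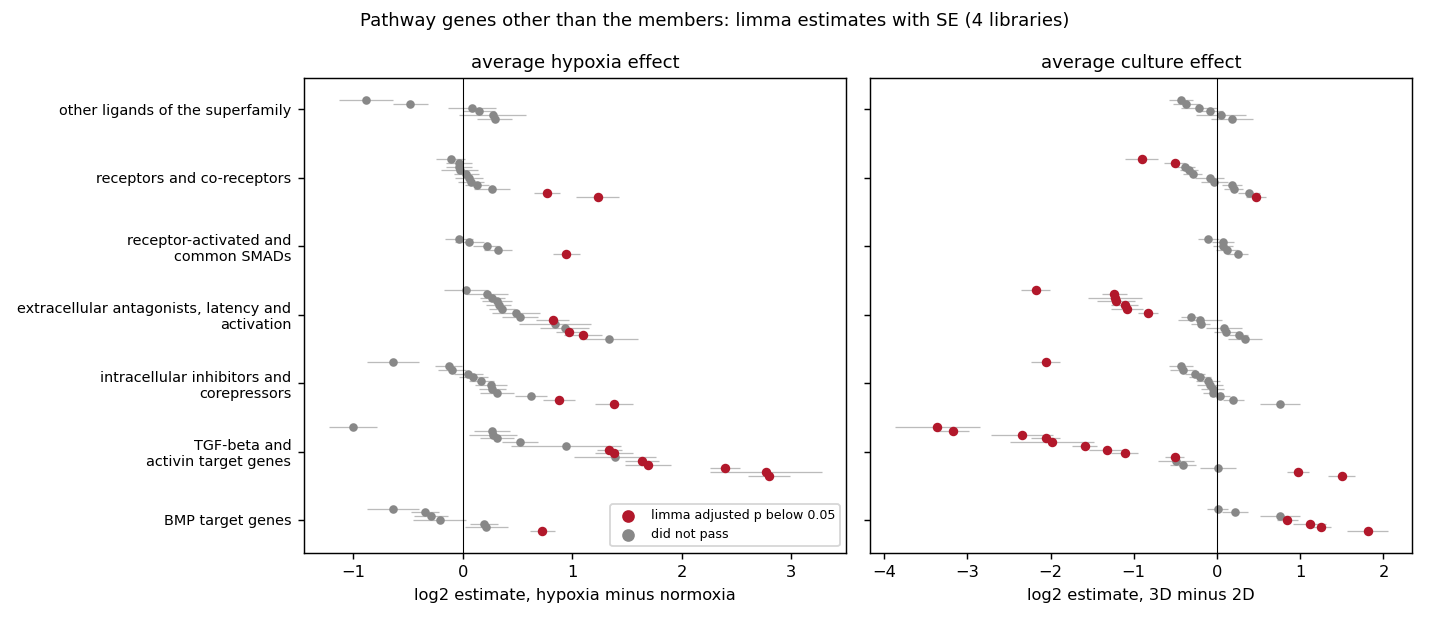
Limma log2 estimates with SE for the expressed pathway genes other than the members, by list, for hypoxia minus normoxia (left) and 3D minus 2D (right), red where the adjusted p was below 0.05. TGF-beta and activin targets lie mainly right of 0 for hypoxia (7 of 14 rose, beside 3.2% of all genes). For 3D they lie mainly left of 0 (9 of 14 fell, beside 11.6%). Of the 7 BMP targets 4 are red on the right for 3D, beside 10.4% of all genes. ATOH8 and ID4 are among these 4 and were admitted by their 3D levels. The lists were chosen with earlier results of these data known.

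The genes whose profiles over the 4 libraries were most like that of INHA were found by the Euclidean distance between log2(FPKM + 1) profiles, each centred on its own mean. Of 12256 genes compared, MUC1, a membrane mucin, was nearest at a distance of 0.43, with 5.16, 29.3, 5.3 and 7.91 FPKM in normoxic and hypoxic 3D, then normoxic and hypoxic 2D. SBK2, a kinase gene, followed at 0.565, HILPDA, a lipid droplet protein, at 0.62, TPPP, a tubulin-binding protein, at 0.64 and CRIP2, a LIM-domain protein, at 0.65. Each had its highest level in 3D hypoxia, which a choice by likeness to INHA favours. Of the members TGFB1 was nearest to INHA (distance 1.23, with 155 genes nearer), followed by INHBB (1.38, with 327 genes nearer), and TGFB2 was farthest at 2.90. The profiles rest on 4 points, so they are a description.

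**Figure D5:**
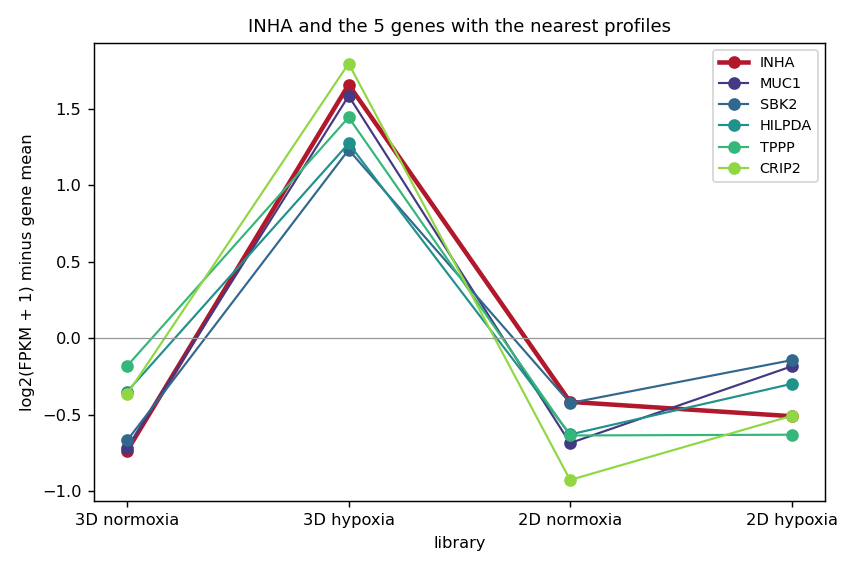
Log2(FPKM + 1) minus each gene's mean over the 4 libraries for INHA (red) and the 5 genes nearest to it, with lines joining the points of a gene as a guide. All 6 genes peak in 3D hypoxia, which the choice by likeness to INHA favours. Only INHA has a 2D hypoxia value not above that of 2D normoxia, but its log2 ratio there (-0.09) is within its counting error (0.15). TPPP comes near, with 2.21 FPKM in 2D normoxia and 2.22 in 2D hypoxia.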

How the data were processed

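RNA-seq of 4 A549 libraries was used. Per the labels' protocols, RNA was extracted with a miRNeasy Micro kit and sequencing libraries were made from mRNA with a TruSeq Stranded kit. Cuffdiff 2.2.1, TopHat2 2.1.1, SAMtools 0.1.18 and Bowtie2 2.2.8 are named with build hg19, per the submitters' processing notes. The authors deposited 1 FPKM value per symbol and library. The annotation, the strand setting and the scaling between libraries were not given in the sources used here.

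Ratios were taken on log2(FPKM + 1) over 12663 genes whose mean reached 1 FPKM, and at least 2-fold means a log2 ratio of 1 or more either way. Average effects were fitted with limma 3.58.1 in R 4.3.3 (trend, prior degrees of freedom 4.67, Benjamini-Hochberg adjustment at 0.05). The fit was tested on simulated data for the hypoxia effect only. Depth was read from the most frequent small product of FPKM and length over 2134 genes with 1 GENCODE 29 transcript of more than 1000 bases, near which lay 70 to 88 genes, and a gene's fragments from its longest coding transcript, so counting errors are estimates. Other software was matplotlib 3.10.9, scipy 1.17.1, pandas 2.3.3 and numpy 2.4.6 under Python 3.11.15.

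The members, lists and rules were chosen with earlier results of these data known. All members were named, with, from each pathway list, up to 5 called genes per effect by size, up to 4 genes by hypoxia ratio in 3D and up to 2 in 2D, all signalling SMADs, and the 5 genes most like INHA. Alternatives were another pseudocount (0.1 FPKM), 2 rescalings, no filter, a mean of at least 5 FPKM and limma without trend. Some genes that the rule would name are not reported here.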

Additional observations from a re-analysis of the deposited data

Results flagged for a closer look

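For 3 members the hypoxia ratio had opposite signs in the 2 cultures, with 1 library in each group, and the difference between the ratios was not tested. The log2 ratio in 3D exceeded that in 2D by 2.48 for INHA, by 1.01 for INHBB and by 0.46 for SMAD6. The INHA ratio in 2D, -0.09, was smaller than its counting error of 0.15, so its sign there is not settled.

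Opposite signs were also seen for 5 named genes of the wider pathway, again untested. The difference of the log2 ratios, 3D minus 2D, was 1.33 for BMP6, 0.84 for ATOH8, 0.29 for SMAD2, 0.27 for NEO1 and -2.29 for COL1A1, which stood higher under hypoxia in 2D alone. The hypoxia ratios of SMAD2 (-0.09) and NEO1 (-0.08) in 2D were small. ATOH8 was below 1 FPKM in both 2D libraries, and COL1A1 was below 1 FPKM in both 3D libraries.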

How the results depend on the processing

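No paired analysis was possible because each group holds 1 library and there are no replicate numbers to pair by, though the additive limma fit already compares oxygen levels within each culture. Leaving out a library would leave that fit no residual degree of freedom. No member ratio of at least 2-fold changed sign under the 5 alternatives, while that of INHBB for 3D against 2D in normoxia went from -0.02 to 0.0036 with the median-of-ratios rescaling. The INHA hypoxia ratio in 3D was 3.33 with a pseudocount of 0.1 FPKM. With a pseudocount of 0.1 FPKM, 2 members were at least 2-fold lower in 3D against 2D in normoxia (SMAD7 at -1.13 joined TGFB2) and 5 pathway genes had a hypoxia response at least 2-fold higher in 3D than in 2D (2 as reported). After rescaling to a sum of 1000000, 1 member (ID1, -1.08) was at least 2-fold lower under hypoxia in 2D, 2 members and 15 pathway genes (9 as reported) were at least 2-fold lower in 3D in normoxia, and 5 pathway genes had the higher response in 3D. With that rescaling limma called 475 genes down under hypoxia, 1 of them a pathway gene, and 767 up and 3132 down in 3D. With the median-of-ratios rescaling limma gave 151 hypoxia calls up and 62 down, 8 pathway genes up (15 as reported), and 4 pathway genes had the higher response in 3D. With no filter all limma calls were lost, 0 genes and 0 pathway genes in each direction. Over the 15955 genes above 0 in every library, an alternative chosen after seeing the data, 312 rose and 163 fell under hypoxia. At a mean of at least 5 FPKM INHA left the comparison, so 1 member was at least 2-fold higher in 3D in hypoxia and 1 in the difference of responses, and the 2-fold line was passed by 3 pathway genes upward in 3D in hypoxia and by 2 downward in the difference of responses. There limma called 313 genes down under hypoxia, 1 a pathway gene. Without trend it called 254 up and 112 down. Of the hypoxia calls named, those of FSTL1, TAGLN, TGFBR1, THBS1, ID2, BMPR2 and TGIF2 were lost with the median-of-ratios rescaling (adjusted p from 0.0506 to 0.0809), and of the culture calls those of COL1A1, GREM1 and NEO1 (0.06 to 0.0676), while TGFBR2 (0.128) and the hypoxia call of FSTL1 (0.0571) were lost on rescaling to a sum of 1000000. Without trend the hypoxia calls of FSTL1, ID2, TAGLN, TGFBR1 and THBS1 and the culture calls of COL1A1, NEO1 and TGFBR2 were lost (0.053 to 0.0686), and over the genes above 0 in every library the hypoxia calls of BMPR2, FSTL1, TAGLN and TGIF2 (0.0502 to 0.0556). At the depths inferred, INHA in 3D normoxia, INHBA and FST rested on too few fragments for their ratios to be precise.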
